A study of Mus musculus with 7 samples.

Results

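This account covers 10 genes of the TEAD and YAP transcription module, taken by gene symbol from a table of 55484 genes measured by RNA-seq. They are the TEAD factors Tead1, Tead2, Tead3 and Tead4, the coactivators Yap1 and Wwtr1 (which encodes TAZ), and the targets Ccn1, Ccn2, Ankrd1 and Amotl2. All 10 symbols were found, and all 10 passed the filter on low counts that left 16580 genes to test. The comparison is between 3 libraries of mouse embryonic stem cells (mESCs), pluripotent cells of the early embryo kept in culture, and 4 libraries of mouse embryonic fibroblasts (MEFs), connective tissue cells grown from embryos. The paper gives a C57/Bl6 background for its MEFs and mESCs in the section on its ATAC-seq (open chromatin) libraries. Its section on the expression data names no background. The labels of the samples give no treatment, allele or passage. The paper calls its expression data biological replicates and counts fewer MEF replicates than the columns used here, without saying which column was left out or whether each is a culture of its own. The p-values therefore measure the spread between these libraries, each taken as a replicate. Libraries are named here by the ending of their column in the count table, O1 to O4 for MEFs and Y1 to Y3 for mESCs. MEFs O1 and O2 differed from O3 and O4 in several genes given in the last section. Whether the 4 MEF libraries come from fewer sources was not tested, so n = 4 counts libraries.

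TEAD proteins bind DNA but activate transcription little by themselves. They recruit YAP or TAZ, which shuttle between cytoplasm and nucleus. In the Hippo pathway, MST kinases act on LATS kinases, which phosphorylate both coactivators and keep them in the cytoplasm. The module answers to cell contact, cell shape and matrix stiffness, is well known in cultured fibroblasts, and in the early embryo TEAD4 with YAP marks the outer cells that form the trophectoderm. Most of this control acts on the proteins, which counts of RNA do not show.

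Library totals ran from 6528643 to 11441278 counts, and levels are given as CPM, counts scaled to library size with TMM factors. A floor of 3 counts in a library corresponded to 0.288 to 0.477 CPM and covers counting error only. The cell type labels held: 10 of 10 pluripotency markers were higher and 10 of 10 fibroblast markers were lower in mESCs (edgeR, adjusted p under the threshold of 0.05). The fibroblast markers in mESCs stood at 0.452% to 8.05% of their MEF level, and the pluripotency markers in MEFs at 0.462% to 4.45% of their mESC level. The 4.45% is the value of Epcam. The paper used the surface proteins of Thy1 and Epcam, both on these lists, to sort the cells of its ATAC-seq libraries. Its section on the expression data names no sort. The extraction protocol in the labels speaks of blood stem cells taken from young and aged mice, which is not what the cell type labels say, and no age is given for any MEF or mESC sample. Of 5 macrophage and leukocyte markers, Ptprc and Adgre1 stayed at or under 2.04 CPM in every library, while Csf1r had 6.40 to 22.6 CPM, Cd68 had 3.12 to 14.2 CPM and Cx3cr1 had 0.590 to 7.47 CPM. In bulk RNA, fewer cells of a type and less RNA per cell cannot be told apart.

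The promoters of 3 targets are shown because the known core site of TEAD factors, GGAATG, lies on one strand or the other in each of them. The windows run from 250 bases before to 50 bases after a RefSeq start site on GRCm38.p6, read in the direction of the gene, and capitals mark the core site or its reverse complement. The Ankrd1 window is chr19:36119795-36120094 on the minus strand, that of Ccn1 is chr3:145649936-145650235 on the minus strand, and that of Amotl2 is chr9:102717554-102717853 on the plus strand. The windows of Ankrd1 and Amotl2 lie wholly inside the gene as GENCODE M21 draws it, so their matches are upstream of the RefSeq start site only.
Ankrd1: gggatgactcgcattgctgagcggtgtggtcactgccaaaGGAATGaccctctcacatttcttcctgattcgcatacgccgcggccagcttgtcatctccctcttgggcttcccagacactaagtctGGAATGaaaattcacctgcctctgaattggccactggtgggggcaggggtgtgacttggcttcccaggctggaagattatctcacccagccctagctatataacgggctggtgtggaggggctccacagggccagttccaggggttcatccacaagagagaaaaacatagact
Ccn1: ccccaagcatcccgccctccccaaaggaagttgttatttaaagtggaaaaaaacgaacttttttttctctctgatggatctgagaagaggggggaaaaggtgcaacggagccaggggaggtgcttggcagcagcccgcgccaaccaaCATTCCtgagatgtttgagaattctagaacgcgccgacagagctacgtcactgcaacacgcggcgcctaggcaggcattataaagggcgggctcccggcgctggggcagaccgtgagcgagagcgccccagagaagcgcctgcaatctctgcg
Amotl2: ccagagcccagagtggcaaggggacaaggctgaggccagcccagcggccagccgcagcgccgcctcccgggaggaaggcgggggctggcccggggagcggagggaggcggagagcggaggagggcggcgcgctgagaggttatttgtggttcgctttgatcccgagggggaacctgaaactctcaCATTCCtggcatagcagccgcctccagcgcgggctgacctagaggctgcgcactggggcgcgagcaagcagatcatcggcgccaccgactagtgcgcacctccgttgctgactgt

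Ankrd1 held 2 matches, from -210 to -205 and from -123 to -118 relative to the start site, both on the sense strand. Ccn1 held 1 match on the antisense strand, from -103 to -98, and Amotl2 held 1 on the antisense strand, from -65 to -60. Of 7 members with an entry in the promoter table, Tead2 was the one without a match in any window. Yap1 and Wwtr1 held 1 match per window, at -141 to -136 for Yap1, and Tead3 held matches in 2 of its 3 windows. The windows of Wwtr1 overlap, and their matches are the same site. Of all 32851 promoter windows of this length, 14.7% held the core site on either strand, and of all 27025 genes, 16.6% had it in at least 1 window. A match describes the letters of these windows and is not a binding site shown by these data. The sites of AP-1 (TGANTCA, in 7.81% of all windows) and of SRF (the CArG box, in 1.63%), both searched on both strands, had no match in the windows of the 7 members. Tead1, Tead4 and Ccn2 have no entry in the table.

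**Figure D1:**
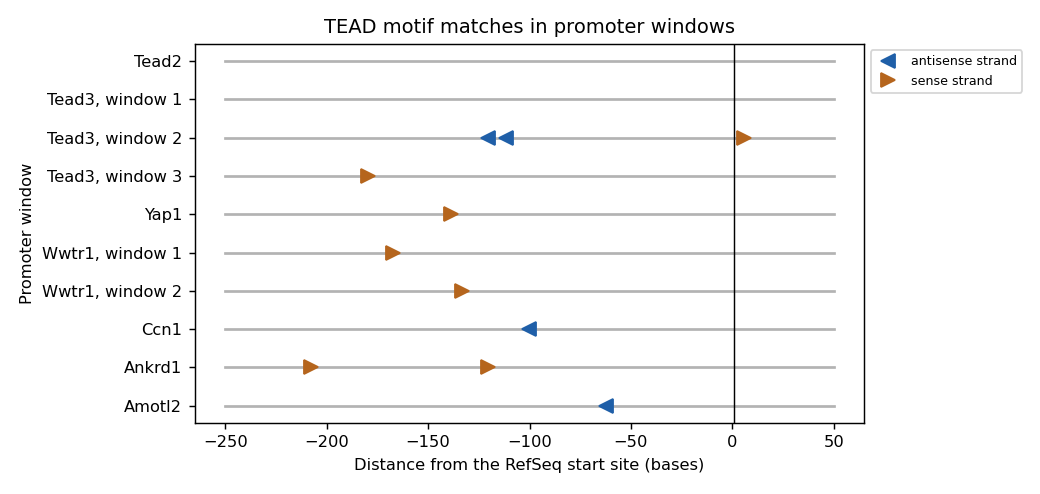
Position of the TEAD core site in the promoter windows of 7 members. The horizontal axis is the distance in bases from the RefSeq start site (vertical line), each grey line is 1 window, and triangles give the strand. The windows of Wwtr1 overlap and show the same site. Ankrd1 holds 2 matches, Ccn1 and Amotl2 hold 1 each, all before the start site, and Tead2 holds none.

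Of the 10 genes, 7 were lower and 1 was higher in mESCs, and 2 did not pass the test (edgeR's quasi-likelihood test at a Benjamini-Hochberg adjusted p of 0.05 over all 16580 genes). Tead1, Tead2, Tead3, Wwtr1, Ccn1, Ccn2 and Ankrd1 fell, Tead4 rose, and Yap1 and Amotl2 missed the threshold. Among all genes tested, 47.9% were called in either direction, 25.0% lower and 22.8% higher in mESCs. The median log2 fold change of the 10 genes was -1.31, against 0.04 over all genes tested. In all 10 the MEF and mESC libraries did not overlap, 9 with mESCs lower and 1 with mESCs higher, where 52.1% of all genes tested did not overlap, 26.2% with mESCs lower and 25.9% with mESCs higher. The split of all calls moved with the scaling: 3785 genes were higher and 4153 lower with TMM, and 5180 higher and 3345 lower without scaling beyond library size, where 6 members stayed lower and 1 higher.

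**Figure D2:**
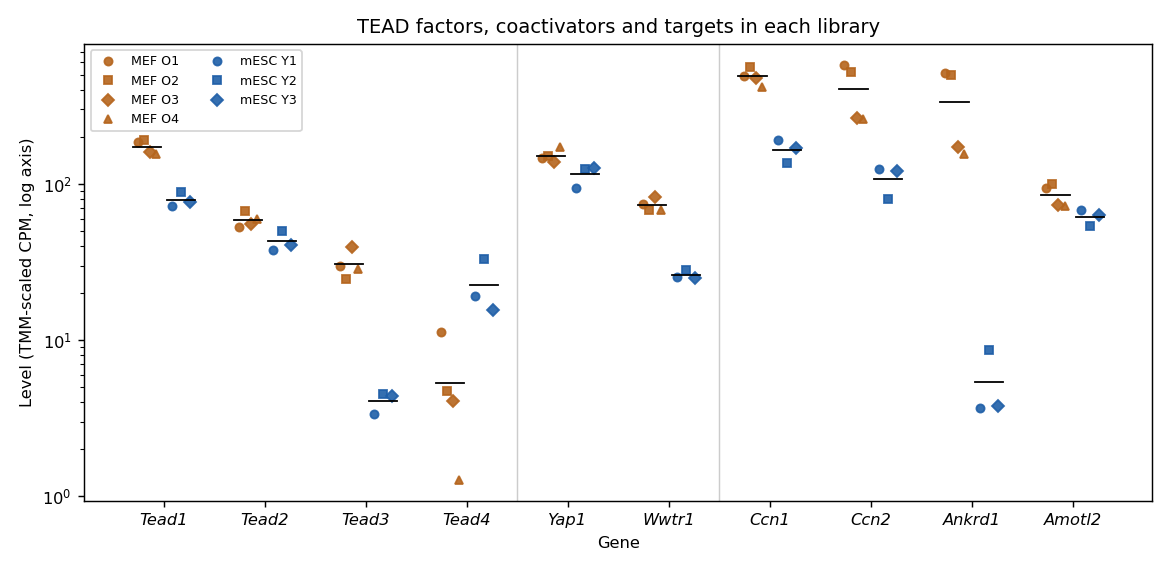
Level of each member in every library. The vertical axis is TMM-scaled CPM on a log scale, each point is 1 library (brown for MEF, blue for mESC) and the black lines are group means. No member has overlapping groups; Tead4 is the only one with mESCs above MEFs, and Ankrd1 has the widest gap, from at least 156 CPM in MEFs to at most 8.63 CPM in mESCs.

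Among the TEAD factors, Tead4 rose while the other 3 fell. Tead4 (chr6:128224288-128300823, minus strand, GRCm38 as all gene positions here), the factor with the earliest known role in the embryo, had 11.3, 4.73, 4.07 and 1.27 CPM in MEFs O1 to O4 and 19.1, 32.9 and 15.6 CPM in mESCs Y1 to Y3. The MEF libraries were uneven, with O1 high and O4 low, yet all of them lay below the lowest mESC library. In raw counts these were 118, 31, 34 and 8 in MEFs and 176, 290 and 132 in mESCs. This gave a log2 fold change, mESC over MEF as throughout, of 2.04 ± 0.543 (SE; edgeR, adjusted p = 0.0098), or 4.11-fold higher in mESCs. Tead3 and Tead4 share 10 sequences of 50 bases in their transcripts. The mean MEF level of Tead4 was 23.7% of its mESC level, above the 4.45% that was the highest share among the pluripotency markers. Its call held without each library in turn, with log2 fold changes of 1.66 to 2.72 (the highest without MEF O1) and a largest adjusted p of 0.0491 (edgeR).

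Tead3 (chr17:28331671-28350817, minus strand) fell most of the family. It had 29.7, 24.8, 39.7 and 28.6 CPM in MEFs and 3.36, 4.54 and 4.37 CPM in mESCs, so the highest mESC library was well under the lowest MEF library. The fitted log2 fold change was -2.91 ± 0.265 (SE; edgeR, adjusted p = 8.42e-06), or 7.50-fold lower in mESCs. Tead1 (chr7:112679318-112906807, plus strand), a broadly expressed family member, had 186, 191, 160 and 156 CPM in MEFs and 72.1, 89.3 and 76.7 CPM in mESCs. The libraries within each cell type lay close together, with the highest 1.22 times the lowest in MEFs and 1.24 times in mESCs. Its log2 fold change was -1.13 ± 0.153 (SE; edgeR, adjusted p = 0.000146), a fall of 2.18-fold.

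Tead2 (chr7:45215753-45233644, plus strand), known for its expression in the early embryo and in neural progenitors, differed least in the family. It had 52.8, 67.4, 55.7 and 59.8 CPM in MEFs and 38.0, 50.1 and 40.5 CPM in mESCs, and MEF O1 and mESC Y2 nearly touched. Its log2 fold change was -0.46 ± 0.170 (SE; edgeR, adjusted p = 0.0466), a fall of 1.37-fold that passed the threshold narrowly. The call was lost without MEF O2 (adjusted p = 0.101), MEF O3 (0.0569), MEF O4 (0.0696), mESC Y1 (0.158) or mESC Y3 (0.129), all by edgeR, and without scaling beyond library size it was lost as well (log2 fold change -0.18, adjusted p = 0.403). Exons of Tead2 overlap the opposite-strand gene Cd37, which had 1 to 64 counts per library, against 343 to 550 for Tead2.

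The 4 genes together made up 268 ± 19.1 CPM in MEFs and 149 ± 24.4 CPM in mESCs (SD, n = 4 and 3), and the make-up of that total differed as well. Per kilobase of annotated exon, Tead1 held 41.0% ± 1.84 of the family level in MEFs and 27.3% ± 2.61 in mESCs (SD, n = 4 and 3). Tead2 held 39.6% ± 4.33 and 41.6% ± 2.68, which on this scale differed by less than 1 SD of either cell type. Tead3 held 14.8% ± 3.45 in MEFs and 2.85% ± 0.485 in mESCs, while Tead4 held 4.66% ± 3.60 and 28.2% ± 5.70. The share of Tead4 was thus at least 22.7% in every mESC library and at most 9.74% in every MEF library. Tead4 lay under Tead3 in every MEF library and above it in every mESC library, where its mean was within 1 SD of that of Tead1. These libraries are biased to the 3' end of transcripts, where counts need not grow with length. On counts alone the share of Tead4 was 1.94% ± 1.49 in MEFs and 14.8% ± 3.65 in mESCs. That of Tead1 was 64.5% ± 2.34 and 53.6% ± 2.81. The share of Tead2 on counts was higher in mESCs, with at most 24.3% in any MEF library and at least 28.3% in every mESC library.

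**Figure D3:**
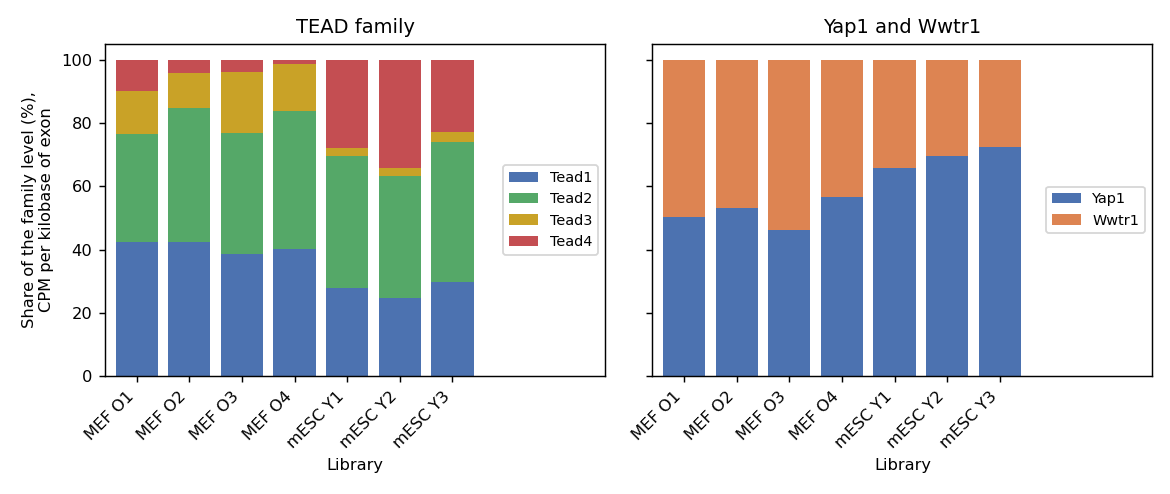
Composition of the TEAD family (left) and of the coactivator pair (right) in each library, as the percentage of the family level in CPM per kilobase of annotated exon. The red Tead4 segment is at most 9.74% in the MEF libraries and at least 22.7% in the mESC libraries, and Yap1 is at most 56.6% in MEFs and at least 65.8% in mESCs.

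Of the coactivators, Wwtr1 fell and Yap1 did not pass the test. Wwtr1 (chr3:57455649-57575910, minus strand) had 74.7, 68.1, 82.7 and 68.1 CPM in MEFs and 25.5, 28.3 and 25.0 CPM in mESCs, 2 tight and well separated groups. Its log2 fold change was -1.48 ± 0.161 (SE; edgeR, adjusted p = 2.83e-05), or 2.80-fold lower in mESCs. Yap1 (chr9:7931999-8004596, minus strand) had 147, 150, 138 and 172 CPM in MEFs and 94.7, 125 and 127 CPM in mESCs. The groups did not overlap, but mESC Y1 lay well under the other 2 mESC libraries and MEF O4 above the other MEFs. For Yap1 the log2 fold change was -0.39 ± 0.158 (SE; edgeR, adjusted p = 0.0628). Exons of Yap1 overlap Gm20416 on the opposite strand, which had 0 counts in every library.

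Within the pair, the balance moved towards Yap1 in mESCs. Per kilobase, Yap1 held 51.6% ± 4.33 of the summed level in MEFs and 69.2% ± 3.31 in mESCs (SD, n = 4 and 3), and the lowest mESC library, at 65.8%, was above the highest MEF library, at 56.6%. On counts alone the shares were 67.3% ± 3.83 and 81.3% ± 2.37. The pair together stood at 225 ± 9.77 CPM in MEFs and 142 ± 18.8 CPM in mESCs.

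The 4 targets encode secreted matrix proteins (Ccn1 and Ccn2, formerly Cyr61 and Ctgf), a nuclear and sarcomeric ankyrin repeat protein (Ankrd1) and a junction protein that binds YAP (Amotl2). Ankrd1, Ccn2 and Ccn1 fell, to very unequal extents, and Amotl2 missed the threshold. Ankrd1 (chr19:36111961-36120099, minus strand) had 513, 496, 173 and 156 CPM in MEFs and 3.68, 8.63 and 3.78 CPM in mESCs. It was high in every MEF library and low in every mESC library, with 34, 76 and 32 counts left in mESCs. That is a log2 fold change of -5.96 ± 0.593 (SE; edgeR, adjusted p = 1.56e-05), a fall of 62.2-fold. Its mESC level was 1.60% of its MEF level, inside the range of 0.452% to 8.05% of the fibroblast markers in the same libraries, and the part of fibroblast RNA in that remainder was not tested.

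Ccn2 (chr10:24595442-24598683, plus strand) had 580, 519, 266 and 262 CPM in MEFs and 125, 79.9 and 121 CPM in mESCs. All MEF libraries were above all mESC libraries, and as for Ankrd1 the MEF libraries O1 and O2 were high and O3 and O4 low. Ccn2 had a log2 fold change of -1.91 ± 0.316 (SE; edgeR, adjusted p = 0.000563), or 3.75-fold lower in mESCs. Of the 50-base sequences of Ccn2 transcripts, 17.2% also occur in Gm15270, annotated on the opposite strand, which had 1 to 38 counts per library against 703 to 6045 for Ccn2. Whether the counting used strand is not stated.

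Ccn1 (chr3:145646976-145649981, minus strand) had 490, 565, 480 and 417 CPM in MEFs and 192, 136 and 170 CPM in mESCs. Unlike Ankrd1 and Ccn2 it was even among the MEF libraries. Ccn1 had a log2 fold change of -1.55 ± 0.164 (SE; edgeR, adjusted p = 2.32e-05), a fall of 2.94-fold. With mESC means of 166 ± 28.4 CPM for Ccn1 and 108 ± 24.7 CPM for Ccn2 (SD, n = 3), these secreted targets kept 34.1% and 26.7% of their MEF level, above the 8.05% that was the highest share among fibroblast markers.

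Amotl2 (chr9:102716672-102733418, plus strand) had 94.3, 100, 73.0 and 72.4 CPM in MEFs and 68.4, 53.6 and 63.1 CPM in mESCs. MEFs O3 and O4 lay just above mESC Y1, so the groups were separate by a small margin. Amotl2 had a log2 fold change of -0.46 ± 0.179 (SE; edgeR, adjusted p = 0.0541). It passed the threshold without MEF O3 (log2 fold change -0.54, adjusted p = 0.0412) or without MEF O4 (log2 fold change -0.54, adjusted p = 0.0337), both by edgeR.

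**Figure D4:**
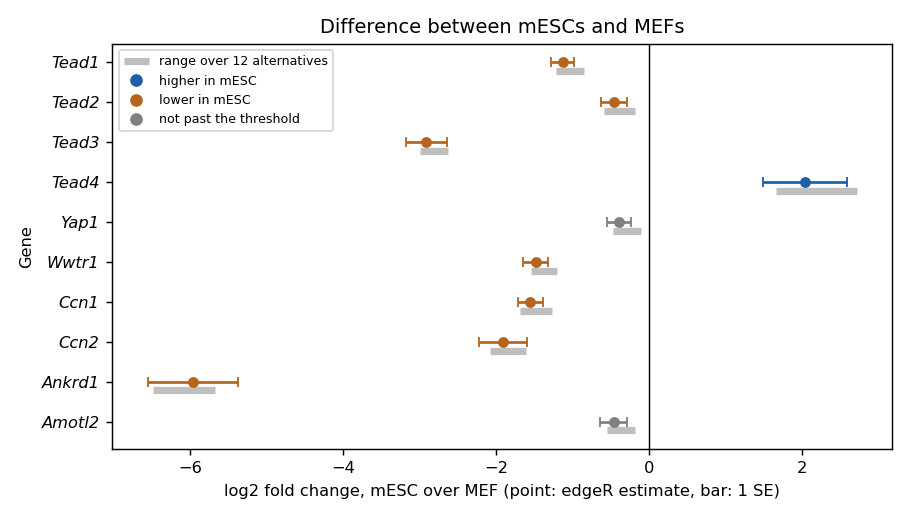
The log2 fold change of each member, mESC over MEF, from edgeR, with 1 standard error as the bar and the range over 12 alternative settings as the grey strip below. Ankrd1 lies at -5.96 and Tead4 at 2.04, while Tead2, Yap1 and Amotl2 lie between -0.46 and -0.39, and no strip crosses 0.

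The MEF libraries were uneven in 2 of the targets, Ankrd1 and Ccn2. The highest MEF library held 3.29 times the level of the lowest for Ankrd1 and 2.22 times for Ccn2, against 1.35 times for Ccn1, 1.22 times for Tead1 and 1.24 times for Yap1. Among the 2083 tested genes with a MEF mean of at least 100 CPM, 1.97% had a larger ratio than Ankrd1 and 6.67% a larger one than Ccn2, while 50.2% exceeded that of Ccn1. Over the mESC libraries the ratio was 2.34 for Ankrd1, 1.56 for Ccn2 and 1.41 for Ccn1, and Y2 held the highest level of Tead4, Tead3, Tead1, Tead2, Wwtr1 and Ankrd1 and the lowest of Ccn1, Ccn2 and Amotl2. No batch is named in the labels for any of these libraries.

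The order of levels per length differed between the cell types. Counts in these libraries, biased to the 3' end, need not grow with length, so the order between genes depends on the scale. In CPM per kilobase of exon, MEFs ran from Ccn1 (242 ± 30.0, SD, n = 4) over Ccn2 (142 ± 58.3) and Ankrd1 (116 ± 68.1) to Yap1 (16.4 ± 1.53), Wwtr1 (15.4 ± 1.45), Amotl2 (13.5 ± 2.30), Tead1 (12.8 ± 1.31) and Tead2 (12.3 ± 1.32), with Tead3 (4.58 ± 0.941) and Tead4 (1.49 ± 1.18) last. Ccn2 and Ankrd1 were within their spread of each other, as were neighbours in the run from Yap1 to Tead2. In mESCs, Ccn1 (82.4 ± 14.1, SD, n = 3) and Ccn2 (37.9 ± 8.65) stayed first, and Ankrd1 (1.86 ± 0.981) dropped from the third place to the last but one, above Tead3 (0.609 ± 0.0951). Tead4 (6.26 ± 2.55), Tead1 (5.85 ± 0.657) and Wwtr1 (5.49 ± 0.372) lay within their spread of each other in mESCs on this scale. On CPM not divided by length the order was another: Yap1 (116 ± 18.1 CPM) stood above Ccn2 (108 ± 24.7 CPM) in mESCs, within their spread, and in MEFs Tead1 (173 ± 17.7 CPM) was the fourth, above Yap1 (152 ± 14.1 CPM). Tead1 (79.4 ± 8.92 CPM) then also stood above Wwtr1 (26.3 ± 1.78 CPM) and Tead4 (22.5 ± 9.19 CPM) in mESCs, beyond their spread.

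The other regulators and targets of the pathway were followed through lists, which were described by counts beside the 47.9% of all genes called. In a 22-gene signature of YAP and TAZ targets defined in human tumours, which holds the 4 member targets, 15 of 21 tested genes were lower and 1 was higher in mESCs, with a median log2 fold change of -2.39. Without the 4 members, 12 of 17 tested genes were lower and 1 was higher, with a median of -3.19. Rbms3, an RNA-binding protein gene, fell most, from 458 ± 184 CPM in MEFs to 2.95 ± 0.712 in mESCs (SD, n = 4 and 3; log2 fold change -7.27, edgeR, adjusted p = 1.73e-07). Ccdc80, a matrix protein gene, fell from 324 ± 26.8 to 3.56 ± 1.68 CPM. Dock5, a Rac activator gene, was the one that rose, from 10.9 ± 3.33 to 29.4 ± 8.44 CPM (log2 fold change 1.43 ± 0.296, edgeR, adjusted p = 0.00233). Gadd45a, a stress response gene, had 109 ± 58.1 CPM in MEFs and 216 ± 162 in mESCs and did not pass the test (edgeR, adjusted p = 0.135), but passed without MEF O3 (adjusted p = 0.0457) or mESC Y3 (adjusted p = 0.0227), which made 2 genes higher. Without mESC Y2, which had 391 CPM against 187 and 70.4 CPM in Y1 and Y3, the log2 fold change of Gadd45a went from 0.99 to 0.24 (edgeR, adjusted p = 0.725). Of 15 signature genes with a promoter entry, 7 held the TEAD core site, namely Amotl2, Ccn1 and Ankrd1 with Lats2, Axl, Crim1 and Ptpn14 (the last 3 named after their sequences were seen), against 16.6% of all genes. Amotl2, Ccn1 and Ankrd1 are the members shown above because they hold the site, so they are counted again here. The difference from all genes was not tested.

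The remaining CCN genes, secreted matricellular proteins that are no members, were lower in mESCs in 3 of 3 tested cases. Ccn4, a Wnt-induced family member, fell from 725 ± 109 CPM in MEFs to 4.19 ± 0.380 CPM in mESCs (SD, n = 4 and 3; log2 fold change -7.43 ± 0.209, edgeR, adjusted p = 6.03e-09). Ccn3 had 66.5 ± 36.7 CPM and Ccn5 had 10.3 ± 0.972 CPM in MEFs, and each had at most 2 counts in any mESC library, which is under the floor. Ccn6 was not tested. Ccn1 and Ccn2 thus kept a larger share of their MEF level in mESCs, 34.1% and 26.7%, than Ccn4 with 0.577%, a comparison that was not tested.

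VGLL proteins bind TEADs in place of YAP and TAZ. Both tested genes fell, Vgll3 from 76.8 ± 21.3 to 3.46 ± 1.93 CPM (log2 fold change -4.47 ± 0.394) and Vgll4, a TEAD repressor, from 38.2 ± 8.10 to 8.35 ± 3.37 CPM (log2 fold change -2.19 ± 0.304; edgeR, adjusted p = 6.46e-06 and 0.000168). Vgll1 and Vgll2 never exceeded 3 counts in a library.

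Of 17 Hippo kinases and their adaptors, 8 were lower and 1 was higher in mESCs, with a median log2 fold change of -0.45. The share called, 52.9%, was near the 47.9% of all genes tested, where 25.0% were lower and 22.8% higher. Lats2, a kinase of YAP and TAZ that is itself a YAP target, fell 9.15-fold (log2 fold change -3.19 ± 0.290, edgeR, adjusted p = 8.07e-06), from 51.6 ± 12.1 to 5.64 ± 1.79 CPM (SD, n = 4 and 3). Map4k5 fell from 35.8 ± 7.90 to 11.8 ± 2.28 CPM. Map4k1, a kinase gene best known from blood cells, was the one that rose, from 3.78 ± 1.57 to 46.5 ± 9.49 CPM (log2 fold change 3.61 ± 0.318, edgeR, adjusted p = 6.46e-06). Mink1 had 1.33 ± 1.17 and 1.97 ± 0.544 CPM and did not pass the test. Without MEF O1, Stk4, which encodes MST1, was called higher (log2 fold change 0.71, edgeR, adjusted p = 0.0385), and without MEF O4 Nf2 was (0.63, adjusted p = 0.0459), so the number higher was 2 in each case (both genes named after their values were seen).

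The 14 regulators upstream of the kinases and at junctions moved both ways, with 8 lower and 3 higher in mESCs and a median log2 fold change of -0.85. The cadherin genes Fat4 and Dchs1, a receptor and ligand pair, fell most, Fat4 from 51.5 ± 28.3 to 0.784 ± 0.306 CPM (log2 fold change -6.00 ± 0.509) and Dchs1 from 24.2 ± 4.90 to 0.720 ± 0.184 CPM (log2 fold change -5.04 ± 0.354; edgeR, adjusted p = 4.81e-06 and 1.23e-06). Wwc1 (KIBRA), which activates LATS, rose from 8.59 ± 1.54 to 38.6 ± 3.45 CPM (log2 fold change 2.16 ± 0.215; edgeR, adjusted p = 1.57e-05). Of the family of Amotl2, Amotl1 fell from 117 ± 9.19 to 28.6 ± 1.26 CPM and Amot from 18.5 ± 5.40 to 6.27 ± 2.28 CPM (edgeR, adjusted p = 2.07e-06 and 0.00338; both named after their values were seen).

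Components of STRIPAK, the phosphatase complex that opposes MST kinases, were lower in 4 of 8 tested cases, with a median log2 fold change of -0.42. Strn4, a striatin gene, had a log2 fold change of -0.82 ± 0.254 (SE; edgeR, adjusted p = 0.0214). The highest log2 fold changes were those of Mob4 (0.22 ± 0.143) and Slmap (-0.16 ± 0.174), which did not pass the test. Without MEF O3, mESC Y1, mESC Y2 or mESC Y3 the number lower was 2, and without scaling beyond library size it was 1. Strn4 lost its call without MEF O3, MEF O4, mESC Y2 or mESC Y3 (edgeR, adjusted p of 0.0508 to 0.0709).

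**Figure D5:**
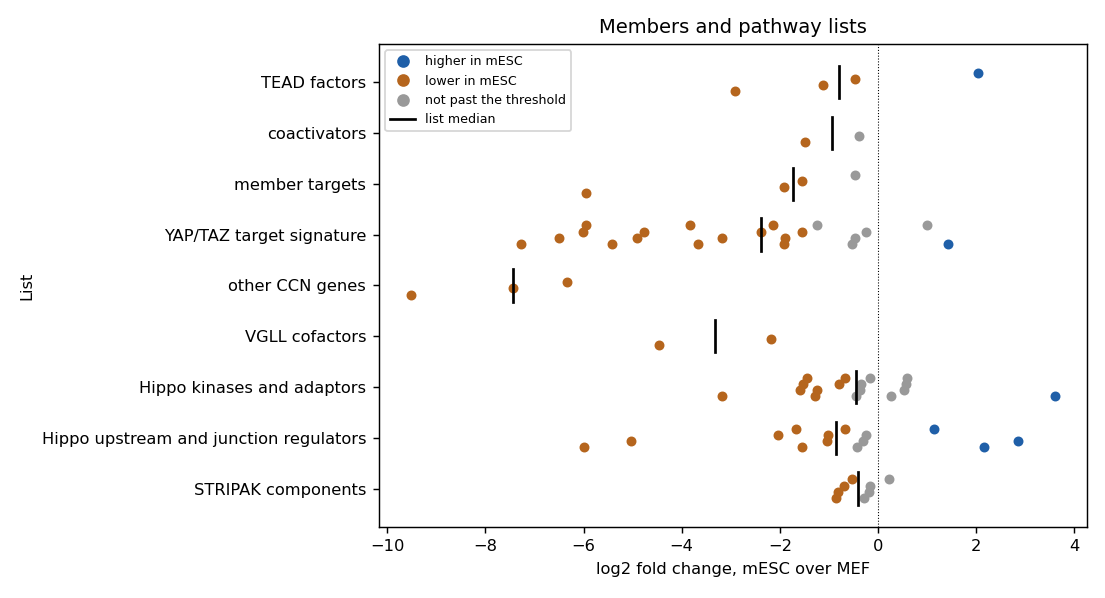
The log2 fold change (mESC over MEF) of each tested gene in the members' 3 groups and in 6 lists of the pathway. Points are genes, coloured by the edgeR call, and black bars are list medians, which run from -7.43 for the other CCN genes, the value of Ccn4, to -0.42 for the STRIPAK components.

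By likeness of log2CPM over the 7 libraries, the genes closest to Tead4, the member with the highest log2 fold change, were Gpank1 (Pearson r = 0.998), Gm45501 (0.994) and Thumpd1 (0.993). The closest to Ankrd1, the member with the lowest, were Szrd1 (0.999), Tead1 (0.998) and Cavin2 (0.998), a caveola gene. The 7 points fall into 2 cell types and share libraries, so r is given as a description only.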

How the data were processed

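RNA was measured in 4 MEF and 3 mESC libraries primed at poly(A) with molecular identifiers, which gives reads biased to the 3' end. Per the paper's methods and the submitters' processing notes, the authors trimmed reads, aligned them to mm10 with STAR (2.4.2a in the notes, another version in the methods), collapsed identifiers with Je and counted unique exonic reads with featureCounts. The deposited values are whole-number counts without normalization. The annotation and strand setting of the counting are not given in the sources used here. All 7 columns of counts were used and 0 were left unused.

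The test was edgeR's quasi-likelihood F test in version 4.0.16 (run in R 4.3.3 with limma 3.58.1), fitted to the 7 libraries after filterByExpr and TMM, with standard errors taken as the absolute log2 fold change over the square root of F. log2CPM used a prior count of 2. On simulated counts of the mESC and MEF comparison, where 200 of 16580 genes were shifted by 2 on the log2 scale, 154 were called by edgeR (10 other genes called) and 155 by DESeq2 1.42.0 (22 others). In the measured data 47.9% of genes were called, far more than were shifted here, so these rates need not hold there. Alternatives were DESeq2, its size factors in edgeR, no scaling, 2 other filters, a prior count of 0.5, shares of counts and each library left out. Exon lengths and overlaps are from GENCODE M21 on GRCm38, and promoters from RefSeq on GRCm38.p6. The members and lists were chosen with earlier results of these data known. The genes named are the 10 members, in each list the 2 highest and 2 lowest by log2 fold change (lists of 6 or fewer in full), those at the floor throughout, and the 3 closest to 2 members. Some genes that this rule names are not reported here. Marker lists covered pluripotency, fibroblasts, endothelium, macrophages, primitive endoderm, keratinocytes and skeletal muscle.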

Additional observations from a re-analysis of the deposited data

Results flagged for a closer look

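Among 55 genes examined, 4 had 1 MEF library far from the remaining 3, and chance at 1 in 20 gives about 2.75. Fat4 was highest in MEF O3, with 6.56 log2CPM (94.0 CPM, the others 34.8 to 39.9 CPM). MEF O1 was lowest for the other 3: Dchs1 with 4.10 log2CPM (16.9 CPM, the others 25.9 to 27.6), Strn4 with 4.62 log2CPM (24.3 CPM, the others 44.1 to 49.3) and Des with 3.54 log2CPM (11.4 CPM, the others 14.1 to 14.6). None of the 10 members was among the 4. Groups of 3, such as the mESC libraries, were not examined in this way.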

How the results depend on the processing

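No paired analysis was possible because the count columns do not carry the replicate numbers of the labels. All 10 members kept the direction of their log2 fold change under the 12 alternatives, and Tead1, Tead3, Tead4, Wwtr1, Ccn1, Ccn2 and Ankrd1 kept their call. Tead2 lost its call without scaling (-0.18), with DESeq2's size factors in edgeR (-0.44) and with no filter beyond 1 count (-0.49), and gave -0.59 to -0.38 without each library in turn. Under the stricter filter, which asks for 10 counts throughout a cell type, Yap1 (-0.42) and Amotl2 (-0.49) passed the threshold, and Amotl2 gave -0.55 to -0.37 without each library in turn. Without scaling beyond library size the median over all genes shifted to 0.32, from 0.04 with TMM. There, 5180 genes were higher and 3345 lower (3785 and 4153 with TMM), 3 Hippo kinases and adaptors were higher (1 with TMM), 1 STRIPAK component was higher and 1 lower (0 and 4 with TMM), 2 signature genes were higher (1 with TMM), 0 trophectoderm factors were lower (1 with TMM), the mean log2CPM of Tead1 in mESC was 6.47 and the mean log2CPM of Wwtr1 in mESC was 4.89. With no filter beyond 1 count, 2 signature genes were higher. Leaving out each library gave 1 to 2 Hippo kinases higher, 2 to 3 STRIPAK components lower, 1 to 2 signature genes higher and 0 to 1 trophectoderm factors lower. The cause of these changes was not tested. On counts as they stand, shares in MEFs were 64.5% for Tead1, 22% for Tead2, 67.3% for Yap1 and 32.7% for Wwtr1, and in mESCs 53.6%, 28.8%, 81.3% and 18.7%, with 14.8% for Tead4, since the genes differ in exon length. Among other named genes, Slmap (0.12), Krt5 (0.17) and Krt14 (0.28) turned to higher without scaling, Krt14 also with DESeq2's size factors (0.02) and DESeq2 (0.02), while it ranged from -0.1 to 0.08 without each library in turn, none of them past the threshold. Depth limits Tead4 in MEF O4, with 8 counts.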

Other observations

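Of 5 trophectoderm factors, among them known embryonic targets of TEAD4 and YAP, Eomes was higher in mESCs (2.34 ± 0.944 against 9.88 ± 3.75 CPM, SD, n = 4 MEFs and 3 mESCs; log2 fold change 2.08, edgeR, adjusted p = 0.00237) and Gata3 lower (25.0 ± 7.09 against 13.9 ± 1.23 CPM; log2 fold change -0.85, edgeR, adjusted p = 0.018). The call of Gata3 was lost without mESC Y2 (adjusted p = 0.0605). Cdx2 and Hand1 had at most 3 counts in any library, with 3, 3 and 0 counts of Cdx2 in mESCs Y1 to Y3 and 0, 0, 1 and 0 in MEFs O1 to O4. Elf5 did not pass the filter on low counts, with 15 counts in mESC Y3, 14 in MEF O3 and at most 3 in the others.

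The MEF libraries O1 and O2, high in Ankrd1 and Ccn2, differed from O3 and O4 in other genes too. Igfbp3, a signature gene, had the opposite order, with 94.2 and 106 CPM in O1 and O2 and 269 and 285 CPM in O3 and O4. Dcn, a proteoglycan gene, had 121 and 149 against 467 and 522 CPM, and Col3a1 had 1541 and 1948 against 3701 and 3589 CPM. The Y-linked genes Ddx3y, Eif2s3y and Kdm5d together had 2.11 and 0.610 CPM in O1 and O2 and 90.6 and 88.4 CPM in O3 and O4, with 1.73, 1.82 and 35.9 CPM in mESCs Y1 to Y3. These genes were picked after their values were seen, and their part in the Ankrd1 and Ccn2 levels was not tested. Over all genes, the chi-square per degree of freedom between libraries was 15.8 for O1 and O2 and 20.1 for O3 and O4. For the other MEF pairs it was 26.2 to 31.1, a measure that also grows with depth. The SDs, standard errors and p-values given here treat the MEF libraries as independent, which was not tested.

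In mESC Y1, Frmd6, a Hippo regulator at the cell cortex, had 58.4 CPM, against 10.5 and 8.85 CPM in Y2 and Y3, and it was called lower in mESCs only without Y1 (log2 fold change -1.85, edgeR, adjusted p = 0.000633). The primitive endoderm marker Dab2 had 45.7 CPM in Y1, against 18.4 and 10.0 CPM, and was lower in mESCs than in MEFs, with a log2 fold change of -1.71 that became -2.51 without Y1. Gata6, the other tested marker of that tissue, had 26.0, 15.5 and 8.85 CPM in mESCs and 25.8 to 34.9 CPM in MEFs and did not pass the test. The 3 markers under the filter were higher in mESCs without overlap: Sox17 had 51, 41 and 9 counts in Y1 to Y3 and Foxa2 had 21, 18 and 4, both with 0 in every MEF library, and Gata4 had 18, 7 and 19 counts against at most 5 in MEFs.

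Markers of other cell types were mostly low, except that the keratinocyte genes Krt5 (32.8 to 44.7 CPM) and Krt14 (36.2 to 48.2 CPM) had nearly the same level in all 7 libraries. Of 3 keratinocyte markers 0 passed the edgeR test, while Trp63 had an unadjusted p of 0.0391 and passed without MEF O1 (adjusted p = 0.0466). Pecam1, an endothelium marker that stem cells also express, rose from 2.79 ± 0.466 to 29.9 ± 8.16 CPM (SD, n = 4 MEFs and 3 mESCs), the only call among the 4 endothelium markers tested. Of 3 macrophage markers tested, Cd68 was higher and Cx3cr1 lower in mESCs, while Csf1r had 6.40 to 22.6 CPM over the 7 libraries and did not pass the test. Cd68 lost its call without MEF O1, O3 or O4 or mESC Y1 or Y2 (edgeR, adjusted p of 0.0615 to 0.195), and Cx3cr1 without MEF O2 or O4 or mESC Y1 or Y3 (0.0557 to 0.112). The skeletal muscle gene Acta1, 1 of 2 tested markers to change, fell from 7.82 ± 5.07 to 0.411 ± 0.283 CPM.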
